A study of Homo sapiens with 3 samples.

Results

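The antisense genes described here are those that lie over another gene in a table of RNA recovered with CTCF, a zinc-finger protein that binds DNA and organises chromatin loops. The table listed 17201 Ensembl genes of human U2OS cells, of which 1423 were annotated as antisense. The interval of 1142 of these overlapped that of another listed gene by at least 1 base. Leaving out 7 of them (KCNQ1OT1, GNAS-AS1, HOTAIR, ZFAS1, GAS5 and the SNHG snoRNA hosts, as far as they were antisense and overlapping) gave 1135 antisense genes. Each was set against its main partner, the listed gene that shared the most bases with it.

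The study asked which RNAs touch CTCF in U2OS, an established osteosarcoma cell line. PAR-CLIP was used: cells took up 4-thiouridine (400 µM, 16 to 24 h), light of 365 nm (400 mJ/cm2) crosslinked it to bound protein, and the RNA attached to CTCF after precipitation from nuclear lysates was sequenced. The labels give 3 samples, which are 2 biological replicates, each made with its own lot of 1 anti-CTCF antibody, and the merge of both. All were U2OS cells under standard culture and 4-thiouridine, so the labels hold no second condition. The counts used here are those of the merge, so that no value below has a replicate error, and control precipitations and RNA abundance were not analysed here.

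Antisense genes are transcribed from the strand opposite to that of a neighbouring or overlapping gene, and many start close to the promoter of that gene. Some antisense RNAs are known to act on the gene they overlap by recruiting chromatin regulators, by interfering with its transcription or by pairing with its mRNA. Others are spliced RNAs with functions elsewhere, and for most no function is known. A count taken over an interval without regard to strand cannot tell the antisense RNA from the RNA of its partner. Whether strand was used is not given in the sources used here. Of the 552 antisense genes that lay wholly inside their main partner, 0 had more counts than the partner (95% Clopper-Pearson interval 0 to 0.666%), which is what counting whole intervals without strand would give. Of all 7008 genes that overlap another listed gene in any way, 42.5% had more counts than their main partner. These include genes that hold their partner, so the 42.5% is not a like comparison for genes wholly inside. The share for inside genes of any class is not given here, so the 0 is not shown to be particular to antisense genes. With the strand setting not known, the RNAs of an antisense gene and its partner cannot be told apart in the shared stretch. The values below give how much of a partner's count an antisense gene could hold.

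RefSeq gave a promoter (250 bases before to 50 after the gene start, GRCh38.p14) for 342 of the 478 antisense genes that had a symbol. Among these 342, the promoters of the 4 with the highest counts are shown, as the starts of the antisense genes that the results on partial overlaps turn on. They are at chr3:42654339-42654638 (minus strand), chr6:113969451-113969750 (plus strand), chr3:111069910-111070209 (minus strand) and chr15:99105828-99106127 (minus strand). Capitals mark CCCTC, the letters after which CTCF is named, searched on both strands. Coordinates of promoters are in GRCh38.p14, and all other coordinates are in hg19 as the table gives them.
ZBTB47-AS1: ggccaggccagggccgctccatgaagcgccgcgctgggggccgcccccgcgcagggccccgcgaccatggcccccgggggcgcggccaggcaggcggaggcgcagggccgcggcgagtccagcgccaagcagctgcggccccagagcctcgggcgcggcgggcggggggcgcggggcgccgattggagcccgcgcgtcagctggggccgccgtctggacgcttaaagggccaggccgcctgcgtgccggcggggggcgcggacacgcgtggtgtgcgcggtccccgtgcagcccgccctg
HDAC2-AS2: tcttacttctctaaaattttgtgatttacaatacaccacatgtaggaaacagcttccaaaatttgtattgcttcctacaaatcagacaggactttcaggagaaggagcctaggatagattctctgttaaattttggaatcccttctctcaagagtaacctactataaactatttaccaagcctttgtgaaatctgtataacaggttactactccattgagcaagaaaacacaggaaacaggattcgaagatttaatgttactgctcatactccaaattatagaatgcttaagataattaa
NECTIN3-AS1: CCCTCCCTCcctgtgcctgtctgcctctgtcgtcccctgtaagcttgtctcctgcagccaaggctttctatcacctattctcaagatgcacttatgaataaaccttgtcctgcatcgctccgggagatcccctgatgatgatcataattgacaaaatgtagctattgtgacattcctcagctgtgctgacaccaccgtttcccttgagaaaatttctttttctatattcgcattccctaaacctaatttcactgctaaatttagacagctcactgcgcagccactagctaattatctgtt
SYNM-AS1: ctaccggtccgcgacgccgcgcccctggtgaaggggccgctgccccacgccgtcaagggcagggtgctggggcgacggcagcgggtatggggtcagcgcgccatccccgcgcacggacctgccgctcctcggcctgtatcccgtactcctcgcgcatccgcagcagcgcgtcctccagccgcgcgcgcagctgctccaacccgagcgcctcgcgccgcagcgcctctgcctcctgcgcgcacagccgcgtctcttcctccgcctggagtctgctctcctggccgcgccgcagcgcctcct
The letters occurred at 2 overlapping places at the very start of the NECTIN3-AS1 window and at 0 in each of the other windows. Base composition ranged widely: G and C made up 82.3% of the ZBTB47-AS1 window, 75.3% of that of SYNM-AS1, 45.3% of that of NECTIN3-AS1 and 34% of that of HDAC2-AS2. Across the 342 promoters, 70.2% held CCCTC on either strand, beside 70.3% of all 27305 RefSeq promoters of this length and 80.4% of the 797 promoters of main partners. The longer CTCF core motif, searched on both strands with its variable positions left free, was found in 7 of the 342 (2.05%, 0.827 to 4.17%) and in 2.49% of all promoters. A match is a description of these letters, not a binding site.

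The overlapping antisense genes had low counts, with a few exceptions. Their counts ran from 6, the lowest value in the table, to 950, with a median of 18 and quartiles of 10 and 41. Of the 1135, 88 stood at 6 counts, 860 had 10 or more and 96 (8.46%) had 100 or more. Together they held 42987 counts, or 3.25% of the 1322047 in the table. Per kb of interval their median was 1.76 counts, and that of all listed genes was 1.78. Protein-coding genes had a median of 43 counts and 1.54 per kb. The 281 antisense genes that overlapped no listed gene had a median of 13 counts and 1.32 per kb over intervals of similar length (median 11.5 kb, against 12.96 kb). The 332 lincRNA genes, long intergenic non-coding RNAs, that overlapped another gene had a median of 20 counts over a longer median interval of 31.4 kb. These differences are over genes of 1 merged sample and were not tested. A gene had to reach 6 counts to be listed, so that a gene inside a strongly recovered partner could pass through its partner's RNA.

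The main partner was a protein-coding gene for 1037 of the antisense genes (91.4%, 89.6 to 92.9%), another antisense gene for 34 and a pseudogene for 31. Among the overlapping lincRNA genes it was protein-coding for 28.0%. In 909 cases the antisense gene overlapped 1 listed gene, in 226 several, and at most 6. The main partners had a median count of 84 and a median length of 49.7 kb. An antisense gene had fewer counts than its main partner in 922 pairs, as many in 32 and more in 181 (15.9%, beside the 42.5% of all overlapping genes). The 42.5% includes the partners of these antisense genes, so it is not a like comparison here either. Spearman's rho between the counts of antisense gene and partner was 0.228 over the 1135 pairs, which share 1 library and, where they overlap, the same RNA.

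**Figure D1:**
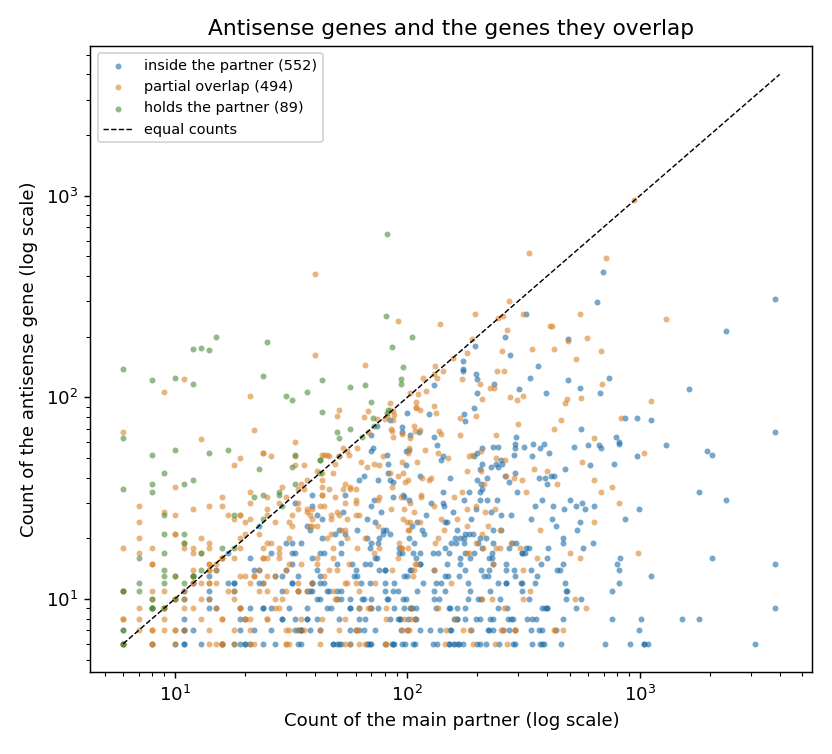
Count of each antisense gene (vertical, log scale) against that of its main partner (horizontal, log scale) in the merged sample, coloured by how the intervals lie. Points for the 552 genes inside their partner lie on or below the dashed line of equal counts, and those for the 89 that hold their partner lie on or above it.

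The share that could be antisense RNA differed with how the intervals lay. There were 552 antisense genes (48.6%) wholly inside the main partner, 494 (43.5%) that overlapped it in part and 89 (7.84%) that held it wholly. The first were short, with a median length of 6.66 kb, and lay in long partners (median 90.4 kb, 143 counts). They could hold a median of 13.2% of the partner's count, with quartiles of 5.88% and 30.1%. The partly overlapping genes were longer (median 20.3 kb) with partners of 37.2 kb and 55 counts. Up to 51.3% of the partner's count (median) could be theirs, taking the smaller of both counts as the most that can be shared. For the 89 that hold their partner the whole partner count (100%) could be theirs. Over all 1135, the largest possible share had a median of 29.1% (quartiles 9.69% and 76.2%), was under 10% for 289 genes and at least 50% for 420.

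The largest possible share is an upper limit. If the counts of an antisense gene were spread evenly over its interval, only those in the shared stretch would also belong to the partner. This even spread, an assumption chosen after seeing the data, gave a median share of 17.0% over all members and 19.0% over the partly overlapping ones. By it, 247 genes could hold at least 50% of the partner's count. Counted over all partners, 1132 protein-coding genes, or 9.26% of those listed, were overlapped by at least 1 of the antisense genes. The values that follow use the largest possible share again, not the even spread, and an overlap of 1 base is enough for it. For 256 of these 1132 (22.6%, 20.2 to 25.2%) the antisense genes could at most account for every count. For 240 (21.2%) they could account for less than 10%. The 1317 distinct partners of any class had 190302 counts, of which at most 23.9% could be shared with antisense genes.

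**Figure D2:**
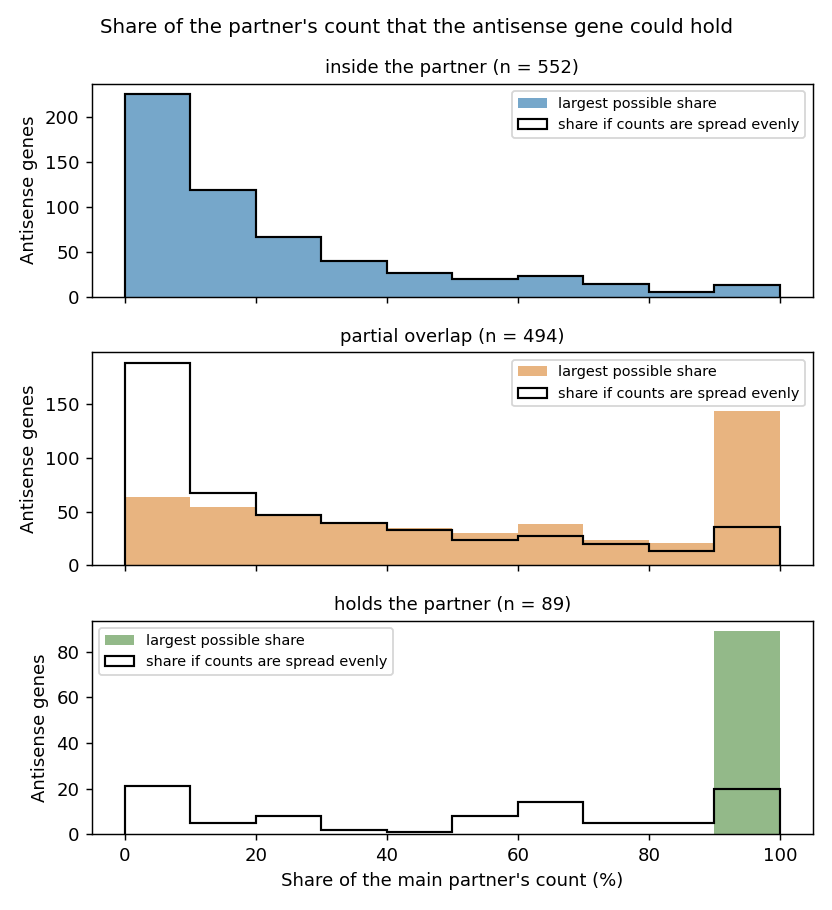
Number of antisense genes (vertical) by the share of the main partner's count they could hold (horizontal, %), in 3 panels by how the intervals lie. Filled bars give the largest possible share and the black outline the share if counts are spread evenly over the antisense interval. Inside the partner both are the same, with a median of 13.2%, while for partial overlaps the medians are 51.3% and 19.0%.

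Among named antisense genes inside a partner of 100 counts or more, those in MED8 and MDC1 had the highest shares. MED8-AS1 had 115 counts over 4.04 kb of chromosome 1 (43850784 to 43854826), inside MED8, which encodes a subunit of the Mediator coactivator and had 131. It could hold 87.8% of them (95% Clopper-Pearson interval 80.9 to 92.9%) on 68.6% of the length. MDC1-AS1 had 200 counts over 10.1 kb of chromosome 6 (30670844 to 30680961), inside MDC1, a scaffold of the DNA-damage response with 263. The share was 76.0% (70.4 to 81.1%) on 56% of the length. If strand was not used in counting, most of what is listed for the coding gene lay in the antisense interval in both pairs. On that condition 16 and 63 counts lay outside it.

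The next highest shares were much lower. ANK2-AS1 had 31 of the 102 counts of ANK2, an ankyrin gene (30.4%, 21.7 to 40.3%). BCL2L1-AS1 had 51 of the 194 of BCL2L1, a survival factor of the BCL2 family (26.3%, 20.2 to 33.1%), although its interval covers 52.6% of the partner. CHMP3-AS1 had 40 of the 153 of RNF103-CHMP3, a readthrough gene, and MAP3K20-AS1 had 57 of the 233 of the kinase gene MAP3K20. The intervals of these 4 shares overlap each other, so that their order is not resolved.

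At the other end were named antisense genes that cover little of a long coding gene. SPTBN1-AS2 had 8 counts (95% Poisson interval 3.45 to 15.8) in 1.78 kb of SPTBN1, a spectrin gene with 1799, or 0.445% (0.192 to 0.874%). BIRC6-AS1 had 6 of the 1046 counts of BIRC6, an inhibitor of apoptosis (0.574%). KCNQ5-AS1 had 6 of the 905 of KCNQ5, a potassium channel gene (0.663%). GPC6-AS2 had 16 of the 2044 of the glypican gene GPC6 (0.783%, 0.448 to 1.27%). Each of these shares was smaller than the antisense gene's share of the partner's length, which was 0.835%, 0.752%, 1.51% and 1.501%, in that order. For SPTBN1-AS2 and BIRC6-AS1 the length share lies within the counting interval of the share of counts, and for KCNQ5-AS1 and GPC6-AS2 it lies above it.

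The named antisense genes whose partners had the highest counts could hold less of them than the median over all pairs (29.1%). The share is divided by the partner's count, so picking pairs by a high partner count favours a low share in advance. GPC6-AS1, in the same partner as GPC6-AS2, had 52 counts (2.54%). KIRREL3-AS1 had 54 of the 1957 counts of KIRREL3, an adhesion gene (2.76%), on 11.6% of its length. SPTBN1-AS1 had 34 of the 1799 of SPTBN1 (1.89%, 1.31 to 2.63%), also on 11.6%. SYNM-AS1, with 246 counts, overlapped IGF1R, the growth-factor receptor gene with 1301, over 10.4 kb or 6.98% of its own interval. At most 18.9% of the IGF1R count could be shared, and an even spread would place 17.2 counts, or 1.32%, in the overlap.

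**Figure D3:**
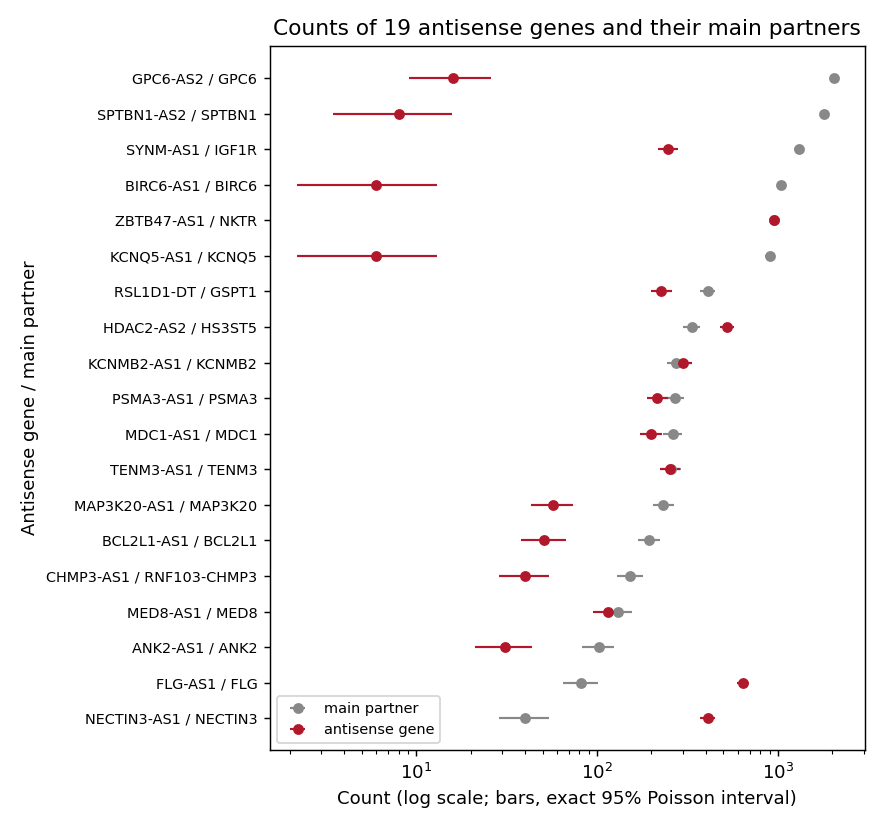
Counts of 19 antisense genes (red) and their main partners (grey) on a log scale, with exact 95% Poisson intervals that cover counting error only. These are the 10 named antisense genes with the highest counts and those with the highest and lowest shares inside a partner. Red points lie far left of grey ones for GPC6-AS2, SPTBN1-AS2, BIRC6-AS1 and KCNQ5-AS1, and right of them for FLG-AS1, HDAC2-AS2 and NECTIN3-AS1.

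If strand was not used in counting, the rest of a partner has the partner's count less that of the antisense gene inside it. On that condition, the counts per kb of such an antisense gene can be set against those of the rest of the partner. They were higher in the antisense gene in 365 of the 552 (66.1%, 62.0 to 70.1%), with a median ratio of 1.55 over the 547 whose partner had counts left. The same held for 79.8% of all 2094 listed genes inside another, whatever their class. The floor of the table forces part of this: where the rest of the partner predicted fewer than 6 counts for the interval, all 184 antisense genes were denser, since others would not be listed. Among the 171 for which the rest of the partner predicted 20 counts or more, a choice made after seeing the data, 57 (33.3%, 26.3 to 40.9%) were denser, beside 39.3% of the 440 such genes of any class. The median ratio of these 171 was 0.690, so most of these antisense intervals had fewer counts per kb than the rest of their partner. Choosing pairs by what the rest predicts also favours partners with many counts in the rest. In the same setting 11 of 30 lincRNA genes and 78 of 174 protein-coding genes inside another gene were denser.

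Antisense genes that lay within 1 kb of an end of their partner, a split chosen after seeing the data, were denser than the rest of the partner more often than those deeper inside. Of 87 near an end, 70 (80.5%, 70.6 to 88.2%) had more counts per kb than the rest of the partner, with a median ratio of 2.27. Of 465 deeper ones, 295 (63.4%, 58.9 to 67.8%) did, with a median of 1.48. Among all 2094 listed genes inside another, wherever they lay, 79.8% did, which is near the share of the antisense genes near an end. No split by distance was made for genes of other classes. The genes near an end were shorter (median 2.84 kb, against 7.72 kb), and the part of length and of the table's floor in this was not tested. With 20 counts or more predicted, 9 of 18 near an end and 48 of 153 deeper ones were denser, and these intervals (26.0 to 74.0% and 24.1 to 39.4%) overlap.

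**Figure D4:**
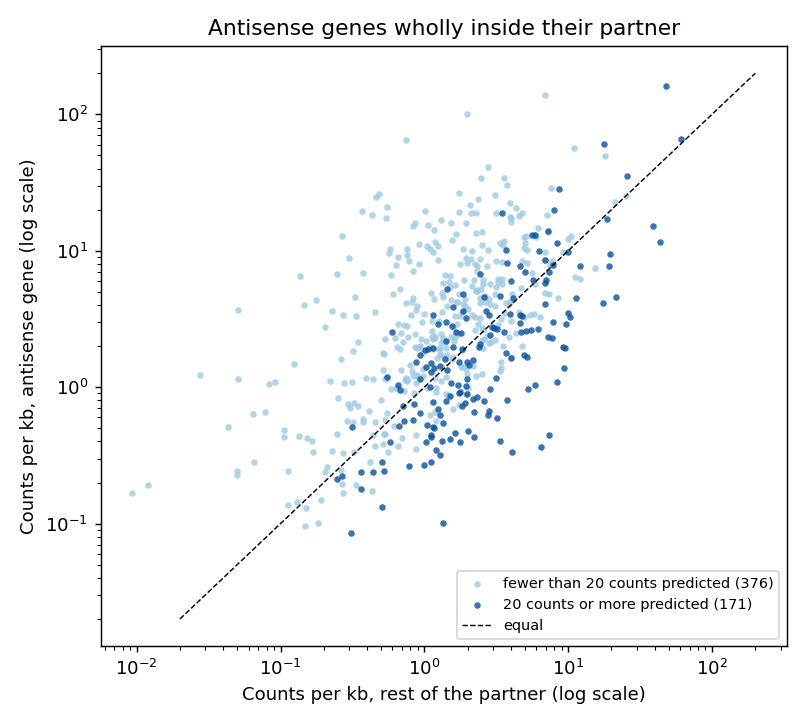
Counts per kb of each antisense gene wholly inside its partner (vertical, log scale) against the rest of the partner (horizontal, log scale). Light points have fewer than 20 counts predicted from the rest of the partner and dark points 20 or more, and the dashed line marks equal values. Of the 171 dark points 57 lie above the line.

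The named antisense genes with the most counts per kb, among those with 20 counts or more, were short. TUBA1B-AS1 had 54 counts in 1.10 kb (49.2 per kb), at one end of TUBA1B, an alpha-tubulin gene with 99 counts. It could hold 54.5% of them (44.2 to 64.6%) on 30.4% of the length. IER3-AS1 had 28 counts in 0.663 kb (42.2 per kb) and shared 0.393 kb with IER3, an immediate early gene with 39. CAMK2G-AS1 had 31 counts in 1.22 kb (25.4 per kb), and the rest of CAMK2G, a calmodulin kinase gene, had 3.11 per kb. PIGBOS1, a gene annotated as antisense that is known to encode a small mitochondrial protein, had 53 counts in 1.86 kb (28.5 per kb). It shares 85 bases with PIGB, a gene of lipid-anchor synthesis with 24 counts. If strand was not used in counting, at least 29 counts of PIGBOS1 lay outside PIGB.

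The largest ratio inside a partner, for antisense genes of 20 counts or more, was that of one without a symbol in NRP1, a neuropilin receptor gene, named after its values were seen. It had 163 counts in 2.53 kb (64.5 per kb), while the rest of NRP1 had 0.744 per kb, a ratio of 86.7. High ratios among the named ones were in long genes. DLGAP1-AS1 had 20 counts in 3.08 kb (6.50 per kb), while the other 346 kb of DLGAP1, a gene of postsynaptic scaffolds, had 47 (0.136 per kb), a ratio of 47.9. IQCA1-AS1 had 21 counts in 1.31 kb, a ratio of 18.5 to the rest of IQCA1. CASK-AS1 had 22 counts in 2.30 kb of CASK, a scaffold kinase gene on the X chromosome, a ratio of 16.8. TSPEAR-AS1 had 25 counts in 9.05 kb of TSPEAR, a ratio of 13.5. In these 4 named pairs the antisense interval could hold between 8.70% and 37.3% of the partner's count on 0.564% to 4.23% of its length. These ratios were picked as high ones from many pairs and are given as values.

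Partial overlaps included the antisense gene with the highest count. ZBTB47-AS1 had 950 counts (95% Poisson interval 891 to 1012) over 52.4 kb of chromosome 3 (42643455 to 42695880). NKTR, a cyclophilin-family gene with splicing-factor features, had 949 on 42642106 to 42690227. They share 46.8 kb, 89.2% of the antisense interval, and an even spread would place 848 counts there. ZBTB47 itself, a zinc-finger gene, had 32 counts and shares 0.704 kb. HDAC2-AS2 had 522 counts over 371 kb of chromosome 6. It covers most of HS3ST5, a heparan sulfate sulfotransferase gene with 335 counts, and shares 1.58 kb with HDAC2, the histone deacetylase gene with 377. KCNMB2-AS1 had 300 counts and KCNMB2, a potassium channel subunit gene, 274, with 302 kb in common. In these 3 pairs the counts of both genes were close or the antisense count was higher, and nearly all of the partner's count could be antisense RNA.

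In other high-count pairs the shared stretch was small. TENM3-AS1 had 254 counts and TENM3, a teneurin adhesion gene, had 257, but they share 0.208 kb of 270 kb, where an even spread would place 0.196 counts. The largest possible share of 98.8% therefore comes down to 0.0762% with an even spread. NECTIN3-AS1 had 409 counts over 178 kb and shares 1.45 kb with NECTIN3, an adhesion gene with 40. If strand was not used in counting, at least 369 counts of NECTIN3-AS1 lay outside NECTIN3. PSMA3-AS1 had 216 counts and shares 6.64 kb with the proteasome gene PSMA3, which had 270 (80% at most, 16.2% with an even spread). RSL1D1-DT, named as a divergent transcript, had 227 counts and shares 27.5 kb with GSPT1, the gene of a translation release factor with 410 (55.4% at most, 34.6% with an even spread). Of the 494 partial overlaps, 86 covered less than 10% of the antisense interval, and 26 of these still had a largest possible share of 50% or more.

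**Figure D5:**
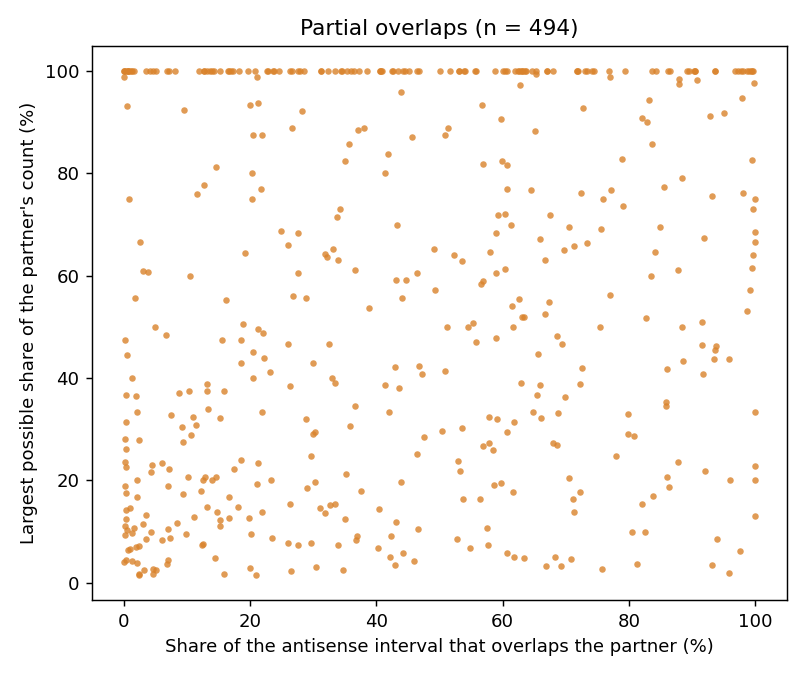
Largest possible share of the main partner's count (vertical, %) against the share of the antisense interval that overlaps the partner (horizontal, %) for the 494 partial overlaps. Points spread over the whole field, with many at 100%, and 26 of the 86 genes with under 10% overlap reach 50% or more.

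If strand was not used in counting, antisense genes that contain other genes had many of their counts in them. Where counts lie is read from interval totals in this paragraph and the next, and rests on that condition. In all, 139 antisense genes held 171 listed genes wholly. A held gene had a median of 50.4% of the antisense gene's count on 12.1% of its length, and in 87 of the 171 pairs it had at least 50%. For the 90 held protein-coding genes the medians were 52.8% of the count and 20.9% of the length. For the 47 held pseudogenes they were 61.9% and 1.45%. A held gene must itself reach 6 counts to be listed, which raises these shares. The examples in this paragraph and the next were chosen after their values were seen, apart from FLG-AS1, MCM3AP-AS1, TPT1-AS1 and ZKSCAN7-AS1. FLG-AS1 spans genes of the skin barrier and had 643 counts over 165 kb of chromosome 1. Of these, 410 lay in the 12.1 kb of HRNR, the hornerin gene (63.8% of the count on 7.36% of the length), and 82 in FLG, the filaggrin gene, which leaves 151. Inside BDNF-AS, with 113 counts over 169 kb, the 4.77 kb of BDNF, a neurotrophin gene, had 57. PPP1R15B-AS1 had 162 counts, 139 of them in PPP1R15B, a phosphatase subunit gene, and MCM3AP-AS1 had 87, of which 83 lay in MCM3AP, an mRNA export gene.

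On the same condition, pseudogenes of a single short stretch held most of the count of some long antisense genes. TPT1-AS1 had 117 counts over 50.1 kb, and 94 of them (80.3%) lay in the 0.914 kb of RCN1P2, a pseudogene. Outside it TPT1-AS1 had 23 counts, or 0.467 per kb, against 103 per kb within. PENK-AS1 had 72 counts over 106 kb, and SEPTIN10P1 had as many (100%) in its 1.16 kb. Pseudogenes resemble the gene they were copied from, and how the authors placed reads that map to several places is not given in the sources used here. Its part in these counts was not tested. ZKSCAN7-AS1, by contrast, had 200 counts over 128 kb with 15 in ZNF197, 75 in ZNF660 and 37 in ZNF35, all zinc-finger genes.

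Some counts of antisense genes cannot belong to any listed partner. In 136 of the 1135 genes (12.0%, 10.1 to 14.0%) the count was higher than the sum over all listed partners. The same share over all overlapping genes was not computed, so whether 12.0% is high or low for this table is not known. The excess had a median of 9 counts, and the excesses summed to 3488, or 8.11% of all counts of these antisense genes. Of the 136, 74 overlapped their main partner in part and 62 held it. Among genes with a symbol the largest was 369 in NECTIN3-AS1, followed by 162 in CCDC144NL-AS1, which had 175 counts and holds the pseudogene RNASEH1P1 with 13. FLG-AS1 followed with 151, NUTM2A-AS1 with 115 beyond the 10 of NUTM2A, and HSPA2-AS1 with 113 beyond the 11 of HSPA2, a testis-enriched chaperone gene. In 4 genes without a symbol the excess was 162, 135, 133 and 114. If strand was not used in counting, these are lower bounds of what lies outside listed genes. A partner under 6 counts would not be listed.

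Of all listed protein-coding genes, 973 (7.96%, 7.49 to 8.46%) were the main partner of an antisense gene. Of 72 listed genes of chromatin and loop factors, 10 (13.9%) were main partners, and their antisense genes could hold a median of 6.49% and at most 29.1% of the count. TTC36-AS1 had 155 counts beside the 533 of KMT2A, a histone methylase gene (29.1% at most, 23.2% with an even spread). KDM4A-AS1 had 65 beside the 241 of the demethylase gene KDM4A, SMARCA5-AS1 15 inside SMARCA5 with 234, TET2-AS1 6 inside TET2 with 134 and KMT2E-AS1 7 beside KMT2E with 433. SMARCA5 and TET2 encode a nucleosome remodeller and an enzyme of DNA demethylation. In this list 0 main partners reached 50%. HDAC2, also on the list, was a further partner of HDAC2-AS2 and not its main one. By the largest possible share all of its 377 counts (100%) could be shared, over 1.58 kb of the 371 kb of HDAC2-AS2. HDAC2-AS2 had 522 counts, so the 377 of HDAC2 and the 335 of HS3ST5 cannot both be shared in full. The share of HDAC2 with an even spread was not computed.

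In the list of RNA processing, 7 of 60 listed genes (11.7%) were main partners, with a median largest share of 9.83%. Apart from NKTR they included HNRNPK, an RNA-binding protein gene with 430 counts, in which HNRNPK-AS1 had 41 (9.53%). HNRNPK-AS1 had 11.6 counts per kb and the rest of HNRNPK 43.3. SEMA3F-AS1 had 97 counts beside the 296 of the splicing regulator RBM5, but 7.49% of its interval overlaps it. RBM15-AS1 had 6 beside the 145 of RBM15, a gene of RNA methylation.

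Genes of the cytoskeleton, adhesion and matrix were main partners in 16 of 55 cases (29.1%), with 23 antisense genes between them, 21 of which lay wholly inside. The median largest share was 2.54%, and it was at least 50% in 2, namely TENM3-AS1 and an antisense gene without a symbol beside the integrin gene ITGAV (170 counts against 256). LAMC1-AS1 had 12 of the 475 of the laminin gene LAMC1 (2.53%), TPM1-AS 9 of the 133 of the tropomyosin gene TPM1 and ITGB5-AS1 8 of the 280 of the integrin gene ITGB5. NTM, an adhesion gene of 3819 counts, contained 4 antisense genes that do not overlap each other, with 399 counts in all (10.4%).

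For zinc-finger genes the possible shares were higher. Of 365 listed ZNF genes 30 (8.22%) were main partners of 31 antisense genes, which could hold a median of 58.3% of the count, and at least 50% in 18 pairs. With an even spread the median was 23.9%. Of the 31, 7 lay wholly inside their partner, and the part of this in the shares was not tested. ZNF45-AS1 had 125 counts beside 134 of ZNF45, ZNF451-AS1 98 beside 210 of ZNF451, ZNF337-AS1 52 beside 45 of ZNF337, ZNF350-AS1 21 beside 10 of ZNF350 and ZNF649-AS1 15 beside 14 of ZNF649. ZNF337-AS1 overlaps ZNF337 over 7.14% of its own interval, and with an even spread its share was 8.25%. Among 246 listed transporter (SLC) genes, 13 (5.28%) were main partners, with a median largest share of 20.1%. SLC38A2-AS1 had 18 counts beside the 307 of SLC38A2, an amino acid transporter gene, and SLC1A3-AS1 25 beside the 140 of the glutamate transporter gene SLC1A3. Of 37 listed genes of the cell cycle and DNA repair, 3 (8.11%) were main partners, among them TMPO, a nuclear lamina gene with 163 counts beside 25 of TMPO-AS1. Over all 1135 pairs the median was 29.1%, and none of these differences between lists was tested.

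Of 58 well-known antisense RNAs, 12 were among these genes, 11 were listed in another class or without an overlap, and 35 were not found by symbol, a search that leaves out genes without one. HOXB-AS3, of the HOXB cluster of body-patterning genes, had the highest count of the 12, with 145 over 52.7 kb of chromosome 17. Its main partner HOXB6 had 66, and 50 counts of HOXB-AS3 exceeded the sum of its 3 listed partners. HOXC-AS2 had 12 inside HOXC5 (133) and HOXA-AS2 10 beside HOXA3 (11). SBF2-AS1 had 99 counts and shares 32.7 kb with SBF2, a membrane-traffic gene of 558. FAM13A-AS1 had 41 beside FAM13A with 91, STARD4-AS1 36 beside NREP with 57, FGD5-AS1 32 beside FGD5 with 25, and NNT-AS1 8 beside NNT, a mitochondrial transhydrogenase gene, with 20. FGD5-AS1 also shares 0.84 kb with NR2C2, a nuclear receptor gene of 57 counts, of which it could hold 56.1%. The interval listed for a gene need not span all of it: NNT, known as a much longer gene, is listed with 13.4 kb.

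At the edge of the overlap rule, PCBP1-AS1 (107 counts) and DDX11-AS1 (7 counts) shared 2 bases with ASPRV1 (9 counts) and DDX11 (173 counts), and PIGBOS1 shared 85 with PIGB. Just outside it, MRPS35-DT (6 counts) lay 3 bases from MRPS35 (21 counts), KHDC1-AS1 (11 counts) lay 19 bases from a gene without a symbol (10 counts), and TMCO1-AS1 (6 counts) lay 27 bases from TMCO1 (125 counts). Of the 281 antisense genes without an overlap, 60 lay within 1 kb of a listed gene.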

How the data were processed

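RNA crosslinked to CTCF in U2OS cells was measured by PAR-CLIP. The authors deposited whole-number counts per Ensembl gene interval for the merge of both replicates, per the labels. Bowtie and bedtools were among the tools and hg19 was the build, per the submitters' processing notes. Their versions and roles, the strand setting and any read filter were not given in the sources used here. Coordinates are printed as in the table, in hg19. The table starts at 6 counts and sums to 1322047, which is not the library size.

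Overlaps, shares and counts per kb were computed with Python 3.11.15, pandas 2.3.3 and scipy 1.17.1, and overlaps were checked on simulated intervals. Symbols came from a table holding 16520 of the 17201 identifiers and, where it gave none, from RefSeq. In all, 14561 of the 17201 had a symbol. Exact 95% Poisson and Clopper-Pearson intervals cover counting error only, and sequenced PCR products are not independent molecules. Shares over genes treat genes as independent. With 1 merged sample no test was made and no scaling between samples applies. Named genes are those with the highest counts, counts per kb (20 counts or more), shares inside partners of 100 counts or more, partner counts, excess and density ratios, and members of the gene lists. The antisense genes and lists were chosen with earlier results of these data known. ZNF and SLC genes were taken by the form of their symbols, a form narrowed after antisense symbols were seen to match it. Genes held wholly, genes with equal counts and genes without a symbol were tabulated after seeing the data. A few genes that the naming rule selects are not reported here.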

Additional observations from a re-analysis of the deposited data

How the results depend on the processing

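The number of overlapping antisense genes was 1135. It was 790 when the overlap had to cover 50% of the antisense interval, 839 with at least 10 counts in both the antisense gene and a partner, 1085 with protein-coding partners only and 1135 with closed intervals. The median largest share of 29.1% was 13.2% for genes wholly inside, 36.6% at a minimum of 10 counts and 21.6% with the 50% overlap. It was 17.0% with an even spread (chosen after seeing the data), 26.9% with the partner of the highest count and 26.7% with protein-coding partners. The causes were not tested. With counts per kb of both genes, cut at 100%, the median was 100%. That value is a ratio of densities and not a share of the partner's count. The 23.9% of the partners' summed count became 12.95% for genes wholly inside, 28.2% at a minimum of 10 and 22.4% with protein-coding partners. The 66.1% of inside genes denser than the rest of the partner became 71.1% at a minimum of 10, 33.3% where 20 counts or more were predicted (chosen after seeing the data) and 65.7% with protein-coding partners. Against the whole partner it must stay at 66.1%, since for a gene inside it the comparison is the same. The 136 genes with an excess became 110 at a minimum of 10 and 136 with closed intervals. No paired analysis was possible because the counts come from the merge alone, which also leaves no replicate to leave out. Depth limits every pair with an antisense count near 6.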

Other observations

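Of the overlapping antisense genes, 657 had no symbol in the tables used. Their median count was 18, as for the 478 with a symbol, and 56.8% of them lay wholly inside their main partner, against 37.4%. The 6 described here are among those with the highest counts or counts per kb and were chosen after their values were seen. One on chromosome 11 (10804860 to 10823172) had 490 counts and shares 4.58 kb with EIF4G2, a translation initiation gene with 713. One on chromosome 10 had 419 counts inside TASOR2, a relative of the silencing factor TASOR with 697, of which it could hold 60.1%. One on chromosome 2 had 296 counts in 15.7 kb of NOL10, a nucleolar protein gene with 657 counts (45.1% of the count), a ratio of 5.42 in counts per kb to the rest of the gene. One on chromosome 1 had 258 counts and overlaps most of KDM1A, a histone demethylase gene with 195. One of 0.801 kb on chromosome 16 had 110 counts inside ANKRD11, a chromatin regulator gene, with 137 counts per kb against 6.85 in the rest. One of 0.772 kb on chromosome 6 had 125 of the 339 counts of TUBB, a beta-tubulin gene (36.9%).

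In 5 of the 552 pairs with the antisense gene inside, both genes had the same count. If strand was not used in counting, every listed count of the coding gene lay in the antisense interval. The coding genes were FEM1A (51 counts), MGAT2 (23), C6orf47 (17), ZNF555 (12) and CNTNAP1 (11). For ZNF555 the shared stretch was 11.5 kb of an interval of 19.0 kb.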
